A study of Caenorhabditis elegans with 14 samples.

Results

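RNA interference (RNAi) in the nematode Caenorhabditis elegans starts when the nuclease Dicer cuts double-stranded RNA. It is amplified by RNA-dependent RNA polymerases (RdRPs), which copy the targeted transcript into secondary small RNAs. Nuclear RNAi factors then use these small RNAs to reduce transcription in the nucleus, a process linked in this animal to histone H3 lysine 9 methylation, the mark that HP1 proteins bind. Much of this machinery is made in the germ line and loaded into the embryo. The 10 genes described here were taken by name from the gene table and are 10 of the 20392 genes in it: Dicer (dcr-1) and its double-stranded RNA-binding partner (rde-4), the RdRP genes rrf-1, ego-1 and rrf-3, the RdRP cofactor genes drh-3 and ekl-1, the mutator focus scaffold gene mut-16, and the nuclear RNAi genes nrde-1 and nrde-2.

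Ribosomal RNA-depleted RNA was sequenced from early embryos grown at 20 °C, the only temperature in the sample labels, although the extraction text also mentions exposure to others. The wild type was the N2 Bristol strain (n = 3), and no allele or agent was shared by all 4 groups. The hpl-2 group (n = 4) carried the tm1489 allele of hpl-2, an HP1 gene. The hpl-2-FFAA group (n = 4) carried the px112 allele of hpl-2. Embryos of the double mutant, met-2 hpl-2 (n = 3), carried tm1489 together with n4256 in met-2, an H3K9 methyltransferase gene, in a strain kept over the balancer chromosome hT2, and the sources used here do not say how embryos without the balancer were obtained. The source label of every sample reads yeast cells, while organism, stage and the gene table are those of C. elegans embryos. Nothing in the labels tells whether replicates came from separate cultures, so the p-values reflect only how far these samples spread, possibly for technical reasons.

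Libraries held 5332725 to 6390870 counts in the first 3 groups and 14313366 to 14840992 in met-2 hpl-2, and the counts of the 10 genes ran from 360 to 5836 per library. Levels are CPM, the counts of a gene relative to the total of its library, after TMM scaling to a common scale. Transcripts of hpl-2 stood at 89.8 to 100.1 CPM in wild type, 3.70 to 5.36 in the hpl-2 mutant, 63.5 to 70.3 in hpl-2-FFAA and 8.58 to 11.1 in met-2 hpl-2. Those of met-2 stood at 27.7 to 31.3 CPM in met-2 hpl-2 and at 260.4 to 297 in all other libraries. All 33 maternal genes of a marker list were detected in every library, the 6 yolk protein genes of adult intestine summed to 1.47 to 4.91 CPM, and 11 sperm genes to 2.87 to 9.39 CPM. Libraries of hpl-2-FFAA stood apart from each other: replicates 1 and 2 differed from replicates 3 and 4 by a chi-square of 4.18 to 8.51 per degree of freedom, against 1.11 between replicates 3 and 4 and 1.17 to 1.28 between wild-type libraries. In the hpl-2 group replicate 1 stood apart, at 2.13 to 3.66 against 1.16 to 1.53 among replicates 2 to 4, and in the deeper met-2 hpl-2 libraries the values were 2.82 to 6.68. Results on hpl-2-FFAA are therefore also given with its replicates 1 and 2 alone, or 3 and 4 alone, where they change.

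All 10 genes were well measured and passed the filter on low counts. Levels between genes are compared only per length, as CPM per kb of the gene width in the table. In wild type mut-16, whose protein organizes the germline foci where secondary small RNAs are made, was highest at 114.4 ± 1.99 CPM per kb (SD, n = 3), above 88.1% of the 9498 tested genes. It was followed by rde-4 at 82.9 ± 1.59, rrf-1 at 67.5 ± 1.22 and dcr-1 at 61.9 ± 0.995 CPM per kb. The RdRP cofactor genes stood at 44.3 ± 0.972 (drh-3, a Dicer-related helicase) and 36.3 ± 1.11 CPM per kb (ekl-1, a Tudor domain protein). Between them lay ego-1 at 40.97 ± 1.74 and nrde-2 at 40.9 ± 1.14 CPM per kb, whose libraries overlapped and which could not be ordered. For every other pair of neighbours in the order all 3 libraries of the higher gene lay above those of the next one. The lowest were nrde-1 at 30.98 ± 1.81 and rrf-3, the RdRP of an endogenous siRNA pathway that involves Dicer, at 24.1 ± 0.73 CPM per kb, above 48.6% of tested genes. The width of rde-4 in the table is 1730 bases against 1204 annotated exon bases in WBcel235, so its level per kb depends on the gene model. For mut-16 the widths are 3947 and 3414 bases, and for the other 8 genes they differ by less than 4%.

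**Figure D1:**
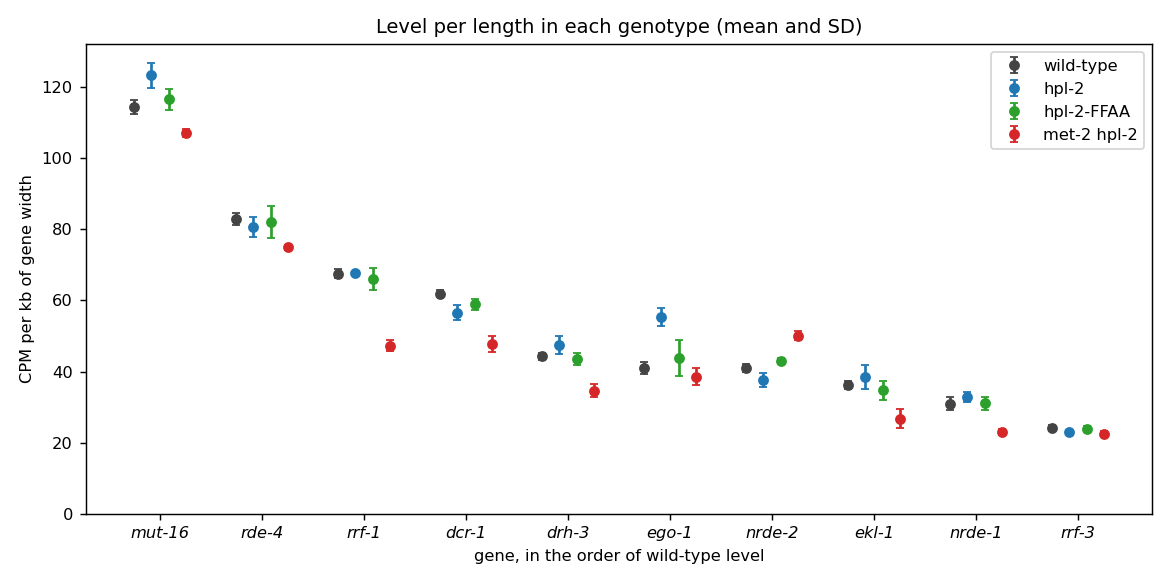
Mean CPM per kb of gene width (points) with SD (bars) of each gene in the 4 genotypes, with genes in the order of their wild-type level. The gene mut-16 is highest and rrf-3 lowest in each genotype, while nrde-2 moves from the seventh place in wild type to the third in met-2 hpl-2.

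The order changed between genotypes in a few places. In the hpl-2 mutant ego-1, at 55.3 ± 2.54 CPM per kb (SD, n = 4), lay within the library range of dcr-1 (56.5 ± 2.12), where in wild type they were 40.97 and 61.9. It also lay above drh-3, with libraries at 52.7 to 58.8 against 45.1 to 51.1 CPM per kb that did not overlap, while in wild type the mean of drh-3 was the higher one. In met-2 hpl-2 nrde-2 rose to 50.1 ± 1.24 CPM per kb (n = 3), with libraries that overlapped those of dcr-1 (47.7 ± 2.24) and rrf-1 (47.3 ± 1.57). There nrde-1 (23 ± 0.852) and rrf-3 (22.4 ± 0.825) overlapped too. Means of ekl-1 (38.5 ± 3.33, n = 4) and nrde-2 (37.7 ± 1.97) changed places in the hpl-2 mutant, and those of ego-1 (43.8 ± 5.11, n = 4) and drh-3 (43.6 ± 1.73) in hpl-2-FFAA, in both cases with overlapping libraries. In met-2 hpl-2 the means of ego-1 (38.5 ± 2.43, n = 3) and drh-3 (34.65 ± 1.95) changed places too. So did those of dcr-1 and rrf-1 there, again with overlapping libraries for both pairs.

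The 10 genes lie on chromosomes I, II and III. In the WBcel235 assembly, used here for gene names and positions, ego-1 (WBGene00001214, chromosome I, 7650341 to 7656338) and rrf-1 (WBGene00004508, chromosome I, 7643431 to 7649777) are neighbours on the minus strand, 563 bases apart with ego-1 upstream. They encode related proteins, and the sources used here do not say how the authors counted reads that match both. Also on chromosome I are ekl-1 (WBGene00009052, 7095486 to 7098400), drh-3 (WBGene00008400, 7820831 to 7826378) and mut-16 (WBGene00003508, 10080159 to 10085765), all on the plus strand. On chromosome II are rrf-3 (WBGene00004510, 8162465 to 8168651, plus strand) and nrde-2 (WBGene00011333, 10242596 to 10247638, minus strand). On chromosome III, which carries both mutated genes, are nrde-1 (WBGene00007577, 3713463 to 3718750, plus strand), dcr-1 (WBGene00000939, 8071967 to 8080281, minus strand) and rde-4 (WBGene00004326, 10217302 to 10218646, minus strand). There dcr-1 lies 0.295 Mb from met-2, and rde-4 0.534 Mb from hpl-2. An effect of the mutation and a difference in the linked strain background cannot be told apart for these genes. The ends of rrf-3 and nrde-1 overlap genes on the opposite strand by 37 and 99 bases of exon, and the sources used here do not say whether counting used strand.

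The first comparison asks which transcripts depend on HPL-2. When it was lost, the RdRP gene ego-1 rose to 135% of wild type, while the other 9 genes stayed between 91.2% and 108% of it. EGO-1 is the RdRP that acts in the germ line and is needed for fertility. Its transcripts stood at 208, 224 and 209 CPM in the 3 wild-type libraries and at 275, 285, 287 and 307 CPM in the 4 hpl-2 mutant libraries. All 4 mutant libraries lay above all wild-type libraries. The difference was 0.43 on the log2 scale (SE 0.0705, adjusted p = 0.000125 in the quasi-likelihood test of edgeR, Benjamini-Hochberg over all tested genes), and it was called in each alternative tried.

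Smaller differences passed the threshold for dcr-1, mut-16 and nrde-2, whose means lay between 91.2% and 108% of wild type. The Dicer gene dcr-1 stood at 361, 353 and 350.4 CPM in wild type and at 341, 315, 315 and 323 CPM in the hpl-2 mutant. The mutant libraries all lay below the wild-type ones, and the gene fell by 0.13 on the log2 scale (SE 0.0407, adjusted p = 0.0146 in edgeR). The scaffold gene mut-16 stood at 443, 456 and 456 CPM in wild type and at 467, 498, 494 and 488.5 CPM in the mutant. It rose by 0.11 (SE 0.0345, adjusted p = 0.0178 in edgeR), with all mutant libraries above wild type. The nuclear RNAi gene nrde-2 stood at 171, 163 and 164 CPM in wild type and at 164, 152, 151 and 145 CPM in the mutant, where the libraries overlapped. It fell by 0.12 (SE 0.0447, adjusted p = 0.0466 in edgeR). These 3 calls were not stable. That of dcr-1 was lost without wild-type replicate 1 (adjusted p = 0.0627 in edgeR), and that of mut-16 without wild-type replicate 1 (0.0891), without hpl-2 replicate 2 (0.0538) and with no low-count filter (0.112), as adjusted p in edgeR. That of nrde-2 was lost in 6 of 8 alternatives, the replicate block among them (adjusted p = 0.109 in edgeR), and without any library other than hpl-2 replicate 1 (adjusted p = 0.0646 to 0.175 in edgeR).

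The remaining RdRP genes and cofactors did not pass the threshold in the hpl-2 mutant. The RdRP gene rrf-1, which acts in somatic tissue and, with ego-1, in the germ line, averaged 339 ± 6.12 CPM over the wild-type libraries (SD, n = 3) and 340.2 ± 1.37 CPM over those of the mutant (n = 4), a log2 difference whose 95% interval was -0.07 to 0.08. The interval was -0.15 to 0.03 for rrf-3, -0.13 to 0.05 for rde-4, -0.004 to 0.199 for drh-3, -0.07 to 0.24 for ekl-1 and -0.03 to 0.20 for nrde-1. In all, 2 of the 10 genes were called higher and 2 lower. Over all tested genes 41.8% were called in this comparison, 20.2% higher and 21.6% lower. Among the 2748 tested genes with levels in the range of the 10, 54.7% were called, 30.1% higher and 24.6% lower, so the 4 calls among the 10 were no larger a share than either background. The median log2 difference of the 10 was 0.04, against 0.004 over all tested genes. Their libraries did not overlap in 3 cases, against 49% of all tested genes.

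**Figure D2:**
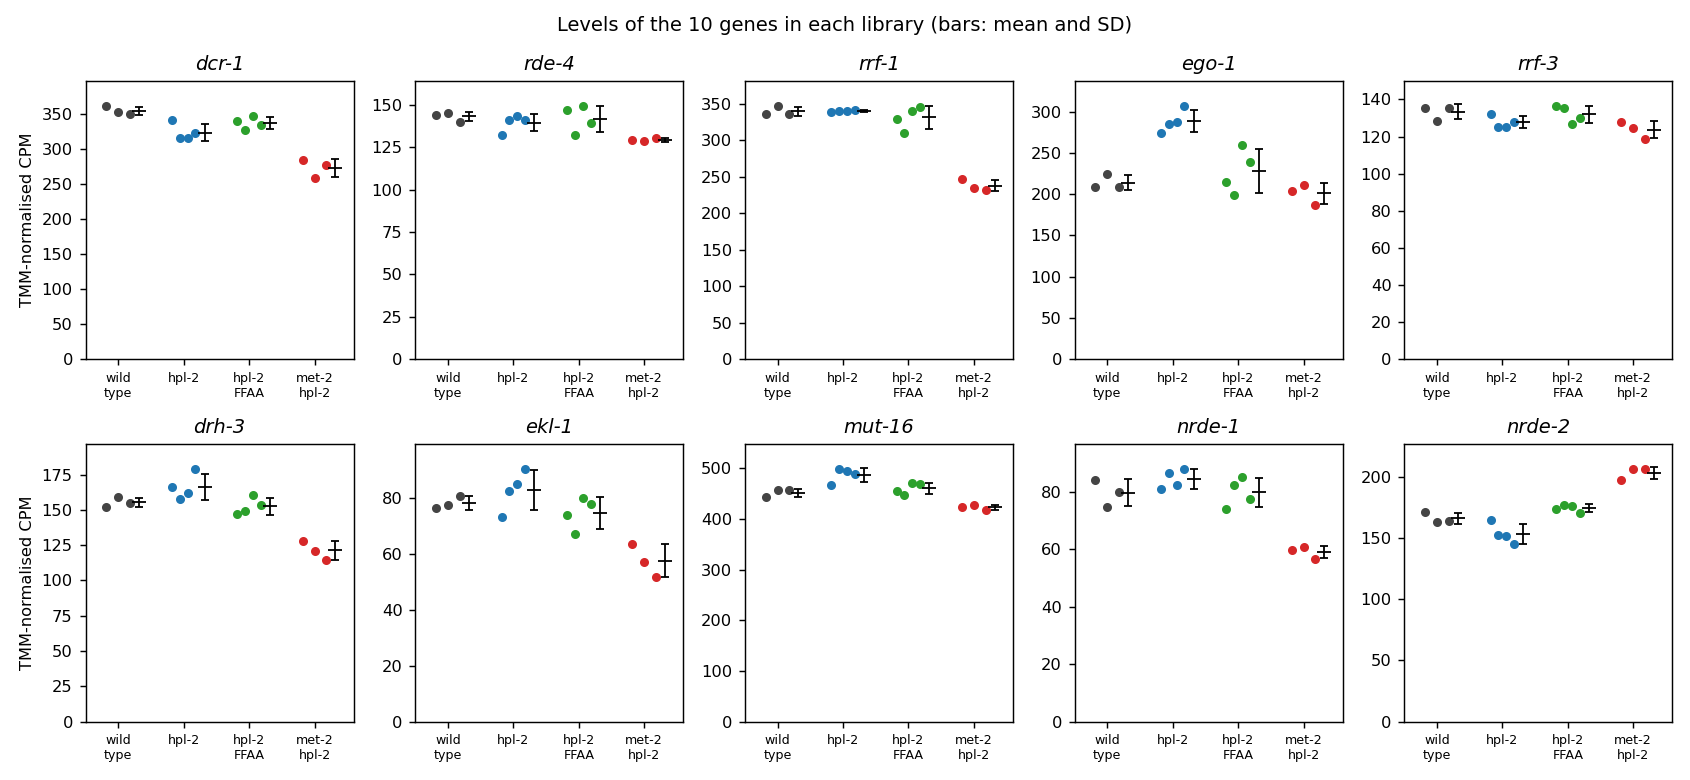
TMM-normalised CPM (linear axis from 0) of each of the 10 genes in each library (points), with mean and SD (bars). The 4 hpl-2 mutant libraries lie above wild type for ego-1, and the 3 met-2 hpl-2 libraries lie below wild type for 8 genes and above it for nrde-2.

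Stage markers moved with the hpl-2 comparison. In the maternal list 20 of 33 genes rose and 0 fell (median log2 0.25), and their summed level was 17460 to 19880 CPM in the hpl-2 mutant against 15170 to 15590 CPM in wild type. Of 32 tested early zygotic genes 2 rose and 20 fell (median -0.26), with sums of 3155 to 3387 against 3890 to 3952 CPM. Of 13 germ line and meiosis genes 10 rose and 0 fell (median 0.42), with sums of 2192 to 2445 against 1772 to 1845 CPM. These lists were written with earlier results of these data known. Their part in the ego-1 difference was not tested, and in whole embryos more cells of a type and more RNA per cell cannot be told apart.

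The px112 allele asks how far a strain that still makes hpl-2 transcripts resembles the deletion. Transcripts of hpl-2 were themselves lower in it, at 68.1% of wild type (log2 -0.55, SE 0.072, adjusted p = 0.000465 in edgeR). In hpl-2-FFAA none of the 10 genes was called in edgeR, and 0 were called in DESeq2. At an unadjusted p under 0.05 in edgeR there were 0 of the 10, against 933 of the 9498 tested genes. Over all tested genes 0.779% were called, 0.547% higher and 0.232% lower. Group means lay between 95.1% and 107% of wild type. Intervals of the log2 difference were widest for ekl-1 (-0.22 to 0.09) and ego-1 (-0.04 to 0.24), and narrowest for mut-16 (-0.04 to 0.09). Only dcr-1 had libraries that did not overlap between hpl-2-FFAA and wild type, against 9.7% of tested genes. It stood at 339.7, 328, 348 and 334 CPM, below the 3 wild-type libraries (log2 -0.07, SE 0.0407, adjusted p = 0.619 in edgeR).

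The germline RdRP gene varied most within hpl-2-FFAA. Its 4 libraries held 215, 199.5, 259.9 and 239.5 CPM of ego-1, a coefficient of variation of 11.7%, against 4.24% in wild type and 4.6% in the hpl-2 mutant. Replicates 1 and 2 lay around the wild-type libraries and replicates 3 and 4 above all of them. With replicates 3 and 4 alone ego-1 was called higher than wild type (log2 0.22, adjusted p = 0.0206 in edgeR), and 820 genes in all were called, 332 higher and 488 lower. The summed maternal list differed in the same libraries, with 14400 to 17450 CPM over the group, and its part in the spread of ego-1 was not tested.

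Set directly against the deletion, hpl-2-FFAA differed in 2 of the 10 genes, where 35.2% of all tested genes were called, 18.7% higher and 16.5% lower. Transcripts of ego-1 were lower in hpl-2-FFAA, at -0.33 on the log2 scale (SE 0.0647, adjusted p = 0.000813 in edgeR), with all 4 libraries below all 4 of the deletion. Transcripts of nrde-2 were higher by 0.18 (SE 0.0414, adjusted p = 0.00238 in edgeR), at 174, 177, 176 and 170.4 CPM against 145 to 164. The libraries of both strains did not overlap for these 2 genes, against 29.4% of tested genes. Both calls held in every alternative tried. Stage markers moved with this comparison too: 10 of 13 germ line and meiosis genes were lower and 0 higher (median log2 -0.36), 19 of 33 maternal genes lower and 1 higher (median -0.17), and 16 of 32 early zygotic genes higher and 2 lower (median 0.21). Their part in the ego-1 difference was not tested. The cofactor genes drh-3 (-0.12, SE 0.0481, adjusted p = 0.0583 in edgeR) and ekl-1 (-0.14, SE 0.0742, 0.138) and the scaffold gene mut-16 (-0.08, SE 0.0318, 0.053) were not called. With hpl-2-FFAA replicates 1 and 2 alone all 3 were called lower (adjusted p = 0.0251, 0.0395 and 0.0199 in edgeR). Leaving out 1 library also brought calls: hpl-2 replicate 1 for ekl-1 (0.0397) and mut-16 (0.0221), hpl-2 replicate 2 for drh-3 (0.0425), and hpl-2-FFAA replicate 3 for drh-3 (0.0301) and mut-16 (0.0439), as adjusted p in edgeR. With all libraries kept, mut-16 was called lower with library size alone (0.0352), a stricter low-count filter (0.0353) and thinned counts (0.0489). That filter also called drh-3 lower (0.0443), all as adjusted p in edgeR.

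The double mutant asks which transcripts differ when a met-2 allele is present besides that of hpl-2. In met-2 hpl-2 embryos 7 of the 10 genes fell and 1 rose against wild type, where 58.1% of all tested genes were called, 29.4% lower and 28.7% higher. Of all calls 49.4% were higher, or 37.7% with library size alone, a scaling that moved the median of all tested genes from -0.004 to -0.09. Among the 2748 tested genes in the level range of the 10, 37.4% were called lower and 26.3% higher. The largest fall was in rrf-1, to 70% of wild type. It stood at 336, 346 and 335 CPM in wild type and at 247, 234 and 232 CPM in met-2 hpl-2, and the libraries were far apart. The difference was -0.51 on the log2 scale (SE 0.0415, adjusted p = 1.24e-08 in edgeR).

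The RdRP cofactors fell with it. The helicase gene drh-3, whose protein is needed by RdRPs to make secondary small RNAs, went from 152, 159 and 155 CPM to 128, 121 and 115 CPM (log2 -0.36, SE 0.0539, adjusted p = 2.05e-05 in edgeR). The Tudor domain gene ekl-1 went from 76.2, 77.4 and 80.8 CPM to 63.6, 56.9 and 51.9 CPM (-0.44, SE 0.0819, adjusted p = 0.000158 in edgeR). No library of either gene in the double mutant reached the lowest wild-type library. The ratio of drh-3 to ekl-1 per kb stayed at 1.24 to 1.36 in met-2 hpl-2 and 1.18 to 1.26 in wild type, ranges that overlapped.

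Dicer and its partner were lower as well. Transcripts of dcr-1 stood at 284, 259 and 277 CPM in met-2 hpl-2, 77% of wild type (log2 -0.38, SE 0.0427, adjusted p = 7.45e-07 in edgeR). Those of rde-4, which binds the double-stranded RNA that Dicer cuts, stood at 129, 129 and 131 CPM against 144, 145.5 and 140.3 CPM in wild type. The fall was small (log2 -0.15, SE 0.0482, adjusted p = 0.0148 in edgeR) and was not called with counts thinned to the smallest library (-0.08, adjusted p = 0.209) or under a stricter low-count filter (adjusted p = 0.0594, both in edgeR). Transcripts of mut-16 stood at 424, 426.5 and 418 CPM, 93.6% of wild type (-0.10, SE 0.0362, adjusted p = 0.0306 in edgeR). That call was lost under the stricter filter (-0.05, adjusted p = 0.171), with thinned counts (0.0654) and without met-2 hpl-2 replicate 3 or wild-type replicate 2 or 3 (0.0741 to 0.0795), as adjusted p in edgeR.

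The nuclear RNAi genes went opposite ways. The gene nrde-1, whose protein acts in the nucleus downstream of the Argonaute-bound small RNAs, fell from 84.2, 74.8 and 79.9 CPM to 59.7, 60.95 and 56.7 CPM (log2 -0.43, SE 0.0614, adjusted p = 1.09e-05 in edgeR). The gene nrde-2, whose protein works in the same pathway, rose from 171, 163 and 164 CPM to 197, 206 and 206 CPM (0.29, SE 0.0453, adjusted p = 2.67e-05 in edgeR). Neither pair of groups overlapped. The ratio of nrde-2 to nrde-1 per kb, which does not depend on the scaling between libraries, was 2.09 to 2.30 in met-2 hpl-2, 1.29 to 1.38 in wild type, 1.31 to 1.48 in hpl-2-FFAA and 1.04 to 1.29 in the hpl-2 mutant.

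The other 2 RdRP genes were not called. Transcripts of ego-1 stood at 204.5, 212 and 187 CPM in met-2 hpl-2, which overlapped wild type (log2 -0.09, 95% interval -0.23 to 0.06, adjusted p = 0.316 in edgeR). Those of rrf-3 stood at 128, 125 and 118.7 CPM, below the wild-type libraries at 129 to 136 CPM (-0.11, SE 0.0463, adjusted p = 0.0555 in edgeR). With library size alone (adjusted p = 0.0024), with no low-count filter (0.0484), with only the groups compared (0.036) and without met-2 hpl-2 replicate 1 or wild-type replicate 2 (0.0332 and 0.0373) rrf-3 was called lower, as adjusted p in edgeR. The libraries did not overlap for 9 of the 10 genes, against 67% of all tested genes. The median log2 difference of the 10 was -0.25, against -0.004 over all tested genes.

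**Figure D3:**
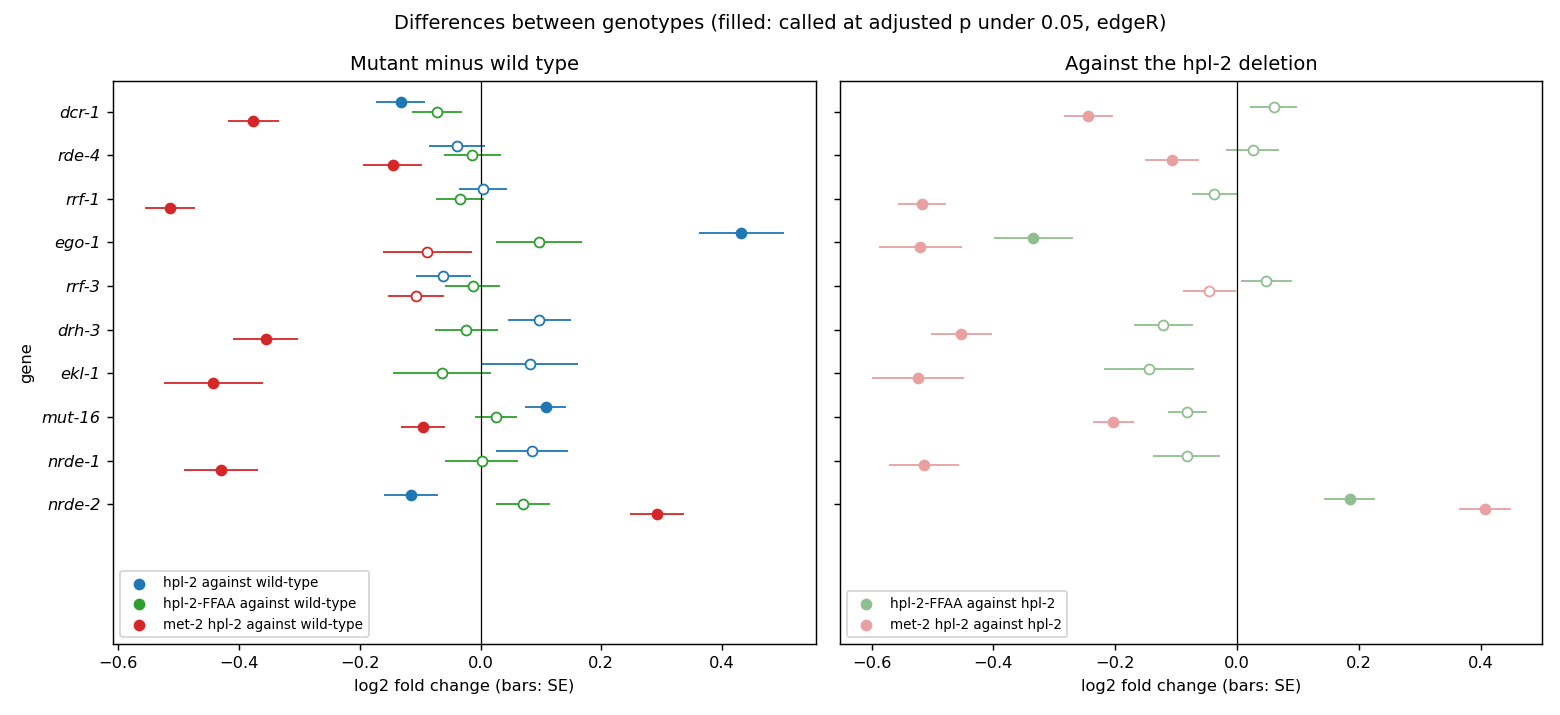
Log2 fold change (points) with SE (bars) of each gene in each mutant against wild type (left) and of both other mutants against the hpl-2 deletion (right), with filled points called at an adjusted p under 0.05 in edgeR. In met-2 hpl-2 against wild type (left) the fall is largest for rrf-1 and only nrde-2 lies above 0, while in the hpl-2 mutant ego-1 lies farthest from 0.

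Other values moved with the double mutant too. Of 15 tested genes of later embryo differentiation 11 rose and 1 fell against wild type (median log2 1.64), and the 19 genes of that list summed to 1143 to 1511 CPM in met-2 hpl-2 against 487 to 537.5 CPM in wild type. Genes of this list differed widely: the body muscle myosin gene myo-3 went from 0.726 to 22.1 CPM, bli-1 from 2.58 to 3.54 and unc-119 from 54.8 to 41.2 CPM. Of the 33 maternal genes 6 rose and 7 fell (median -0.05), with sums of 14860 to 15960 CPM against 15170 to 15590. Of 32 tested early zygotic genes 9 rose and 12 fell (median -0.12). Among 13 germ line and meiosis genes 6 rose and 4 fell (median 0.02). The double mutant libraries were also the deepest. The part of stage and tissue makeup in the falls was not tested. With counts thinned to the smallest library 6 of the 10 genes were called, and 4919 genes in all.

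Against the hpl-2 deletion, which shares the tm1489 allele, met-2 hpl-2 had 8 of the 10 genes lower and 1 higher, where 71.2% of all tested genes were called, 35.2% lower and 36% higher. In the level range of the 10 genes 80.6% were called, 48.1% lower and 32.5% higher. Of the marker lists, 22 of 33 maternal genes were lower and 2 higher (median log2 -0.28), and 8 of 13 germ line and meiosis genes lower and 3 higher (median -0.22). In the other 2 lists 16 of 32 early zygotic genes were higher and 3 lower (median 0.17), and 12 of 15 later differentiation genes higher and 0 lower (median 1.61). Their part in the falls was not tested. This comparison uses the same double mutant libraries as the one with wild type. The remaining hpl-2 transcripts also differed, at 10.03 CPM in met-2 hpl-2 against 4.41 CPM in the deletion (log2 1.18, SE 0.14, adjusted p = 6.32e-07 in edgeR). The part of that difference in the comparison was not tested. The largest falls lay close together, in ekl-1 (log2 -0.52, SE 0.0757), ego-1 (-0.52, SE 0.0679), rrf-1 (-0.52, SE 0.039) and nrde-1 (-0.51, SE 0.0567). Smaller ones followed in drh-3 (-0.45, SE 0.0501), dcr-1 (-0.24, SE 0.04), mut-16 (-0.20, SE 0.0338) and rde-4 (-0.11, SE 0.0449). Transcripts of nrde-2 were higher by 0.41 (SE 0.0421). Adjusted p in edgeR ran from 2.47e-09 (rrf-1) to 0.0405 (rde-4), and rrf-3 was not called (-0.05, 95% interval -0.13 to 0.04, adjusted p = 0.353 in edgeR). With library size alone rrf-3 was called lower (-0.15, adjusted p = 0.00805 in edgeR). The call of rde-4 was lost in 4 of 8 alternatives, the replicate block among them (adjusted p = 0.0587 in edgeR), and without any of 6 libraries (0.0614 to 0.102). The other 8 held in every alternative. Libraries of both strains did not overlap for 9 of the 10 genes, against 69.9% of tested genes.

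For the neighbours ego-1 and rrf-1, log2 differences from wild type were 0.43 and 0.004 in the hpl-2 mutant and -0.09 and -0.51 in met-2 hpl-2. The ratio of ego-1 to rrf-1 per kb was 0.597 to 0.624 in wild type, 0.783 to 0.865 in the hpl-2 mutant and 0.776 to 0.871 in met-2 hpl-2. All libraries of both deletion strains lay above all wild-type libraries, and the 2 deletion strains overlapped. In hpl-2-FFAA the ratio was 0.62 to 0.736. Of the summed level per kb of the 3 RdRP genes, rrf-1 made up 50.9% ± 0.0868 in wild type (SD, n = 3), 46.3% ± 0.671 in the hpl-2 mutant (n = 4) and 43.7% ± 1.12 in met-2 hpl-2 (n = 3). The share of rrf-3 was 18.2% ± 0.849, 15.8% ± 0.522 and 20.7% ± 0.0949 in the same groups.

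**Figure D4:**
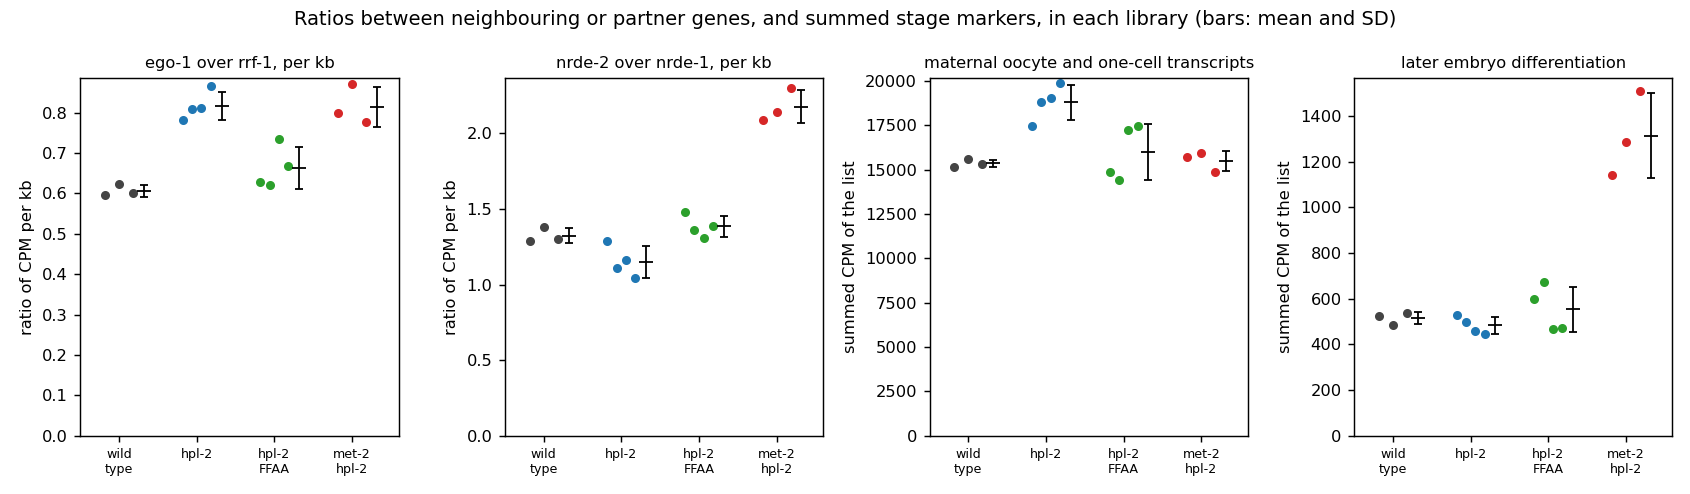
Ratio of ego-1 to rrf-1 and of nrde-2 to nrde-1 in CPM per kb, and summed CPM of the maternal and later differentiation lists, in each library (points) with mean and SD (bars). The ego-1 to rrf-1 ratio is at most 0.624 in wild type and at least 0.776 in both deletion strains, and the nrde-2 to nrde-1 ratio is at least 2.09 in met-2 hpl-2 and at most 1.48 elsewhere.

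Other genes of the small RNA pathways were read from 6 lists, written with earlier results of these data known, with 61 genes in the table beside the 10 and 60 of them tested. In the hpl-2 mutant 31 rose and 8 fell (median log2 0.15), where 20.2% of all tested genes were higher and 21.6% lower, and where 10 of 13 germ line and 20 of 33 maternal marker genes rose. The part of those markers in the counts was not tested. Of 15 piRNA genes, which make the small RNAs bound by the Piwi protein, 11 rose and 0 fell, with the Piwi gene prg-1 at 0.44 (SE 0.0609) and tofu-5 at 0.37 (SE 0.0581). Of 13 mutator and amplification genes 8 rose and 1 fell: rde-11 rose by 0.62 (SE 0.0996), and rrf-2, another RdRP gene, fell from 8.73 to 3.99 CPM (-1.12, SE 0.22). Of 9 nuclear RNAi genes 5 rose and 1 fell, with hrde-1, the germline nuclear Argonaute gene, at 0.41 (SE 0.0635) and heri-1, a chromodomain gene, at 0.76 (SE 0.121). Of 11 genes in the Dicer and double-stranded RNA list, not all of them Dicer partners, 4 rose and 1 fell. Among these were nyn-1 at 0.59 (SE 0.0887) and the ADAR-related gene adr-1 at -0.28 (SE 0.0619). Among microRNA genes 2 rose and 4 fell of 8, the GW182-related gene ain-1 by -0.56 (SE 0.102) and the exonuclease gene xrn-2 by -0.23 (SE 0.0437). The double-stranded RNA channel gene sid-1 rose by 0.81 (SE 0.0661) and the kinase gene sid-3 fell by 0.15, as the called ones of 4 tested systemic RNAi genes. Adjusted p of these named genes ran from 1.03e-07 (sid-1) to 0.0096 (sid-3) in edgeR.

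In hpl-2-FFAA 1 of the 60 genes was called, where 0.779% of all tested genes were. It was sid-1, which went from 52.1 to 69.99 CPM (log2 0.43, SE 0.068, adjusted p = 0.00358 in edgeR). In met-2 hpl-2 18 rose and 19 fell (median -0.04), where 28.7% of all tested genes were higher and 29.4% lower. The 10 genes, with 1 up and 7 down, stood beside the Dicer and double-stranded RNA list with 3 up and 5 down of 11, mutator genes with 2 and 5 of 13, piRNA genes with 3 and 5 of 15, and nuclear RNAi genes with 3 and 2 of 9. MicroRNA genes had 5 up and 2 down of 8, and systemic RNAi genes 2 up and 0 down of 4. The microRNA Argonaute genes alg-1 and alg-2 rose by 1.18 (SE 0.116) and 0.58 (SE 0.0541). Among piRNA genes prde-1, needed for piRNA precursor transcription, rose by 1.51 (SE 0.143) and tofu-6 fell by 1.05 (SE 0.0542). In the Dicer and double-stranded RNA list nyn-1 rose by 0.98 (SE 0.0852) and the ribonuclease gene rde-8 fell by 0.72 (SE 0.0786). Further named genes were rsd-2 (-0.41, SE 0.0493), the Z granule helicase gene znfx-1 (0.36, SE 0.0505), morc-1 (0.34, SE 0.0444), emb-4 (-0.29, SE 0.0394), sid-1 (0.75, SE 0.0664) and sid-3 (0.25, SE 0.044). Their adjusted p ran from 3e-11 (tofu-6) to 0.000111 (sid-3) in edgeR.

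**Figure D5:**
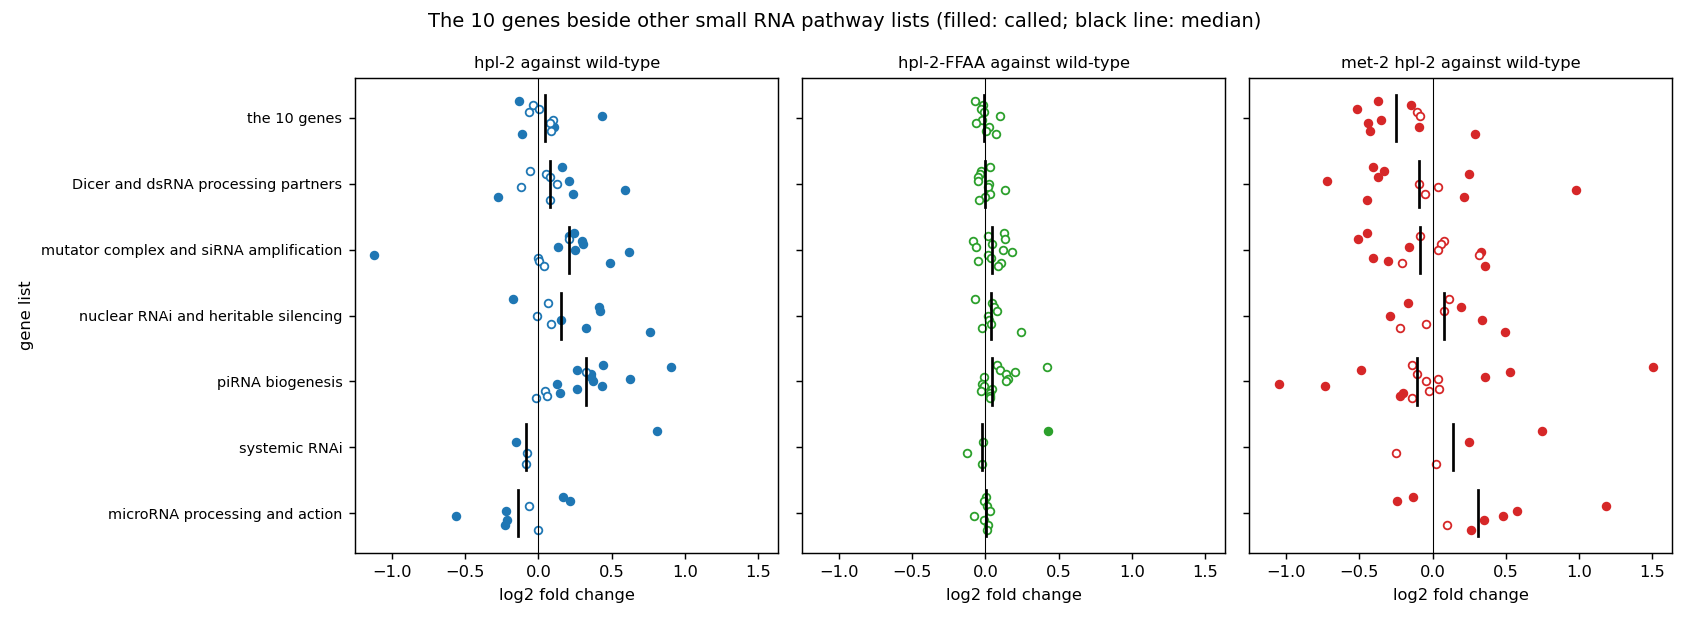
Log2 fold change against wild type of the 10 genes and of 6 other small RNA pathway lists in each mutant, 1 point per gene, filled where called in edgeR, with the median of each list as a black line. In the hpl-2 mutant the piRNA list has its median at 0.32, and in met-2 hpl-2 the 10 genes have theirs at -0.25.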

How the data were processed

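Total RNA of 14 libraries was sequenced in 4 groups after rRNA depletion with a stranded kit, per the labels' protocols. The authors deposited raw counts per gene, with a gene width in bases. The submitters' processing notes name Trimmomatic 0.39 and the build ce10, while aligner, counter and use of strand are not stated in the sources used here. Names and positions were matched by WormBase ID to Ensembl's WBcel235 annotation (19870 of 20392 IDs), and no coordinate was converted. Counts of all 14 libraries were fitted in 1 model with 4 groups in edgeR 4.0.16 (R 4.3.3), with TMM scaling, edgeR's default low-count filter (9498 genes kept) and the quasi-likelihood test. P-values were Benjamini-Hochberg adjusted over all tested genes, and a gene was called at an adjusted p under 0.05. The SE was taken as log2 fold change over root F, and 95% intervals are 1.96 SE to each side. The fit was tested on simulated data. Totals of 5332725 to 14840992 counts per library set the precision, and the common biological coefficient of variation was 5.34%. Alternatives were DESeq2 1.42.0, other scalings and filters, thinned counts, a replicate block, the compared groups alone, and libraries left out. Named genes were the 10, the mutated genes, and in each pathway list the 2 called genes of smallest adjusted p per comparison. A few later differentiation genes were named outside this rule, to show the spread of their list. The 10 genes, the lists and the tests were chosen with earlier results of these data known. List names without a match in the table were left out. Within each group all pairs of libraries differed beyond sampling noise.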

Additional observations from a re-analysis of the deposited data

Results flagged for a closer look

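Of 32 group values examined in the groups of 4 libraries, covering the 10 genes, the 2 mutated genes and the ratios between genes, 1 held a library far from the others. Transcripts of hpl-2 stood at 70.3 CPM in hpl-2-FFAA replicate 4, against 63.5 to 63.8 CPM in the other 3 libraries, a gap of 0.961 of the group's range. Chance alone flags about 1 in 20 such groups, and no value of the 10 genes was flagged.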

How the results depend on the processing

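No called result changed direction. Log2 differences that were not called did cross 0 in hpl-2-FFAA against wild type, as for ego-1 (-0.04 to 0.22) and ekl-1 (-0.15 to 0.01). Of the values of the 10 genes under all alternatives, 738 kept their side of the threshold, 33 lost a call and 19 gained one. In the hpl-2 mutant 2 of the 10 were called with no low-count filter instead of 4, beside 3775 genes in all instead of 3968. With a library left out 1 to 4 were called (1 without wild-type replicate 1, 2 without hpl-2 replicate 2), beside 3119 to 4020 genes in all. In hpl-2-FFAA against wild type 1 was called with replicates 3 and 4 alone, and 0 with any library left out. For hpl-2-FFAA against hpl-2 there were 4 under the stricter filter (at least 5 CPM in 3 libraries), 5 with hpl-2-FFAA replicates 1 and 2 alone and 2 to 4 with a library left out. Beside these, 3239, 4073 and 2511 to 3509 genes were called in all. In met-2 hpl-2 against wild type 7 to 9 were called with a library left out, beside 4920 to 5445 genes in all. Against hpl-2 there were 8 to 9, beside 6315 to 6678 genes in all. Over all genes hpl-2-FFAA against wild type, 74 in the fit used, gave 24 with only the groups compared, 43 with the replicate block, 49 with replicates 1 and 2 alone, 820 with replicates 3 and 4 alone, and 26 to 108 with a library left out. Against hpl-2, 1482 were called with replicates 3 and 4 alone, instead of 3345. The cause was not tested. Whether replicate numbers pair the samples could not be decided. Deviations of 19 same-numbered pairs correlated at -0.495 to 0.545, 4 of them over 0.1. Of these, 3 lay between hpl-2 and hpl-2-FFAA (0.503, 0.298 and 0.545), where the remaining same-numbered pair was at 0.0374. In all, 6 of 14 libraries were most like their own number. Pairs of unlike number reached 0.666 (hpl-2 replicate 1 with hpl-2-FFAA replicate 2), so these correlations do not settle it. With the replicate block 3, 0, 8, 2 and 8 of the 10 genes were called in the 5 comparisons, beside 3453, 43, 5481, 3343 and 6479 genes in all. The order is that in which they were described, the hpl-2 mutant first, with hpl-2-FFAA against the deletion placed after the double mutant against wild type. Counts were thinned to the depth of the smallest library in 1 random draw only. There rde-4 (log2 -0.08, adjusted p = 0.209) and mut-16 (-0.086, 0.0654, both in edgeR) were not called in met-2 hpl-2 against wild type.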

Other observations

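Other small RNA genes moved between the mutants. Against hpl-2, hpl-2-FFAA had 8 of 60 tested genes higher and 29 lower (median log2 -0.12), where 18.7% of all tested genes were higher and 16.5% lower and where 10 of 13 germ line and 19 of 33 maternal marker genes were lower. Of the piRNA genes 11 of 15 were lower and 0 higher, with prg-1 at -0.36 (SE 0.0559) and tofu-2 at -0.38 (SE 0.067). The germline Argonaute gene hrde-1 was lower by a log2 of -0.35 (SE 0.0584) and the RdRP gene rrf-2 higher by 1.14 (SE 0.206). In met-2 hpl-2 against hpl-2, 16 were higher and 36 lower (median -0.24), where 36% of all tested genes were higher and 35.2% lower and where 8 of 13 germ line and 22 of 33 maternal marker genes were lower. Among them were tofu-6 at -1.18 (SE 0.0505), the ribonuclease gene rde-8 at -0.93 (SE 0.0718), mut-2 at -0.70 (SE 0.0578) and the small RNA methyltransferase gene henn-1 at -0.75 (SE 0.0646). The nuclear Argonaute gene nrde-3 was higher by 0.29 (SE 0.0464), as were alg-1 (1.25, SE 0.106) and alg-2 (0.80, SE 0.0502). The part of the markers in these counts was not tested.

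The RdRP gene rrf-2, outside the 10, stood below all of those per kb in each group. Its mean was 1.82 CPM per kb in wild type and 0.834 after loss of HPL-2. The FFAA strain had 1.86 and the double mutant 2.27 CPM per kb.

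Genes with the most similar pattern over the 14 libraries, among 5740 genes averaging 20 CPM or more, are given by Pearson's r of log2 CPM as a description; the libraries share genotypes. They were dpt-1 (0.995) and uba-2 (0.994) for rrf-1, C37C3.9 (0.989) and vps-39 (0.985) for ego-1, inx-14 (0.984) and pdhb-1 (0.979) for mut-16, C36B1.14 (0.982) and ubc-15 (0.978) for nrde-1, and exo-1 and nstp-4 (both 0.981) for drh-3. For ekl-1 they were xpd-1 (0.98) and mys-4 (0.968), for dcr-1 aly-3 (0.975) and top-1 (0.973), and for nrde-2 aqp-12 (0.97) and rpl-28 (0.967). The lowest were those of rde-4, with ddx-23 and rpa-2 (both 0.9), and of rrf-3, with Y42H9AR.4 (0.857) and gpdh-2 (0.853).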
